A study of Homo sapiens with 10 samples.

Results

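Integrins are the receptors that tie a cell to its matrix, and laminins are the main glycoproteins of the basement membrane that epithelial cells sit on. The genes described here were chosen by name from the deposited expression table. They comprised integrin α and β genes, laminin chain genes, and 4 genes for proteins that hold laminin in the basement membrane (NID1, NID2, HSPG2 and AGRN). The genes reported are 28 of the 12125 in the table, namely 16 integrin genes, 8 laminin chain genes and the 4 linker genes. The rule used no measured value.

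RNA was sequenced during hepatic differentiation of the established human embryonic stem cell (hESC) line H1, with 1 library a day on days 0 to 3, every other day from day 5 to day 13, and on day 21. The hESCs were kept on Matrigel, a basement membrane extract rich in laminin. Day 0 was this undifferentiated culture in mTeSR1, a different medium from those below, before any factor of the differentiation protocol was given. Activin A at 100 ng/ml was given for 3 days (days 1 to 3), BMP2 at 20 ng/ml with FGF4 at 30 ng/ml for the next 4 days (days 5 and 7), HGF and KGF at 20 ng/ml for 6 days (days 9 and 11), and Oncostatin M (OSM) at 20 ng/ml for the last 8 days (day 21). The medium was RPMI/B27 up to OSM, without insulin in the Activin A step, and a hepatocyte culture medium in the OSM step. The day 13 library was labelled OSM, although the step lengths make it the last day with HGF and KGF. The whole series is 1 cell line and 1 library per day, so no difference between days could be tested and no p-value or standard deviation is given.

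A laminin molecule is a cross of 1 α, 1 β and 1 γ chain, assembled inside the cell and then polymerised outside it. Nidogens, perlecan (HSPG2) and agrin (AGRN) bind laminin and link it to type IV collagen and to the cell surface. Integrins are dimers of 1 α and 1 β chain, and the α chain largely sets the ligand, with α3, α6 and α7 binding laminin, α5, α8 and αV binding the RGD motif of fibronectin and similar proteins, and α1, α2 and α11 binding collagen. Most of these α chains pair with β1, and adult hepatocytes in the liver lie next to a sinusoid that lacks a full basement membrane.

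The table holds whole numbers that the authors normalized for GC content, so that all libraries share nearly the same distribution of values. They are scores, not read counts, and the depth of each library is unknown. Sums per library lay between 2330948 and 2362740, the median was 82, or 81 for day 21, and the maximum of 18734 was held by 10 genes in every library. Between 96 and 100 genes per library had 2164 or more, on levels that the libraries share, and the highest value below 18734 was 6502 in any library. These levels were reached by 6 members (LAMA1, LAMB1, LAMC1, HSPG2, ITGAV and ITGB1). The values are not per length, so each gene was compared only with itself. A member was called upregulated or downregulated when log2(value + 1) differed by at least 2, that is 4-fold, and the larger value was at least 50; this scale understates the change of low genes. As a yardstick, the 95th percentile of the absolute log2 difference between days 9 and 11, which share a medium, was taken over genes of like level. It was 0.78 for values of 30 to 100, 0.59 for 100 to 300 and 0.54 for 300 to 1000. It is a low yardstick, because 0.213% of genes were called between these days, against 0.318% to 5.09% between the other successive libraries, and it also holds any real change between them. No member was called between days 9 and 11, against 0.107% of the 8444 genes tested in each direction.

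**Figure D1:**
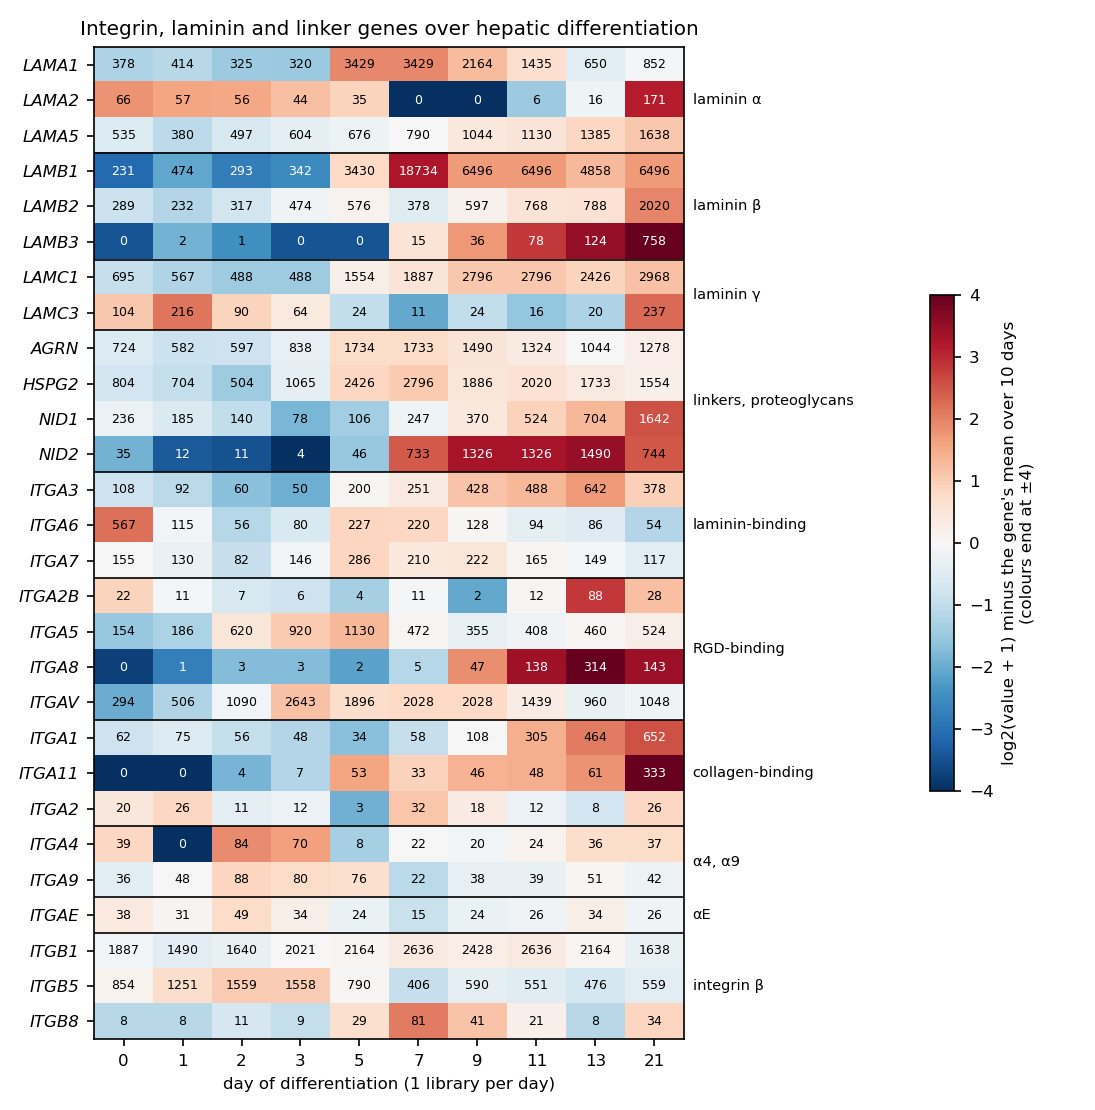
Value of each of the 28 genes (rows, grouped by role) on each day (columns, 1 library per day), printed in each cell. The colour is log2(value + 1) minus the gene's own mean over the 10 days, so LAMA1, LAMB1 and LAMC1 turn red at day 5, LAMB3 and ITGA11 are darkest red at day 21, and ITGA6 is strongest red at day 0.

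Over the whole course 21 of the 26 members with a value of at least 50 on any day had a highest and a lowest day at least 4-fold apart (80.8%), against 40.2% of all genes. Day 21 held the highest value of 9 of the 28 members (32.1%), against 18.6% of all genes, and day 7 held it for 5 members (17.9%), against 7.92% of all genes, with a tie given to the earlier day (LAMA1, equal on days 5 and 7, counts for day 5). For 9 members (32.1%) the largest step up lay between days 3 and 5, when Activin A gave way to BMP2 and FGF4, and this step held it for 15.2% of all genes. Only ITGA6 was highest at day 0. The comparisons below share libraries at days 0, 3, 7, 13 and 21, so a high or low value in 1 of these libraries enters more than 1 comparison.

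The first comparison, day 3 against day 0, asks how the genes stood once hESCs had become definitive endoderm (DE). Only integrin α chains were called, and no laminin chain was. ITGAV and ITGA5, receptors for RGD ligands such as fibronectin, were upregulated, and ITGA6, a laminin receptor, was downregulated. These were the only calls among the 20 members that reached the minimum of 50 on at least 1 of the days, with 2 higher (10%) and 1 lower (5%), against 3.94% and 2.16% of the 8934 genes tested. The median log2 difference of the 20 was 0.14, against -0.06 for all genes tested.

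ITGA6 encodes the α6 chain, the laminin-binding integrin subunit by which pluripotent cells hold on to laminin. In the order of the 10 libraries, from day 0 to day 21, its values were 567, 115, 56, 80, 227, 220, 128, 94, 86 and 54. Most of the drop lay between days 0 and 1, the values of days 5 and 7 stood above those of days 2 and 3, and day 21 was the lowest of all. From day 0 to day 3 the log2 difference was -2.81, and 0.817% of the genes tested were lower by at least as much. Such shares, here and below, count only genes that moved in the same direction. In the table ITGA6 (ENSG00000091409) lies on the plus strand at chr2:173292082-173339705.

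ITGAV encodes αV, which pairs with several β chains including β1, β5 and β8. It was 294, 506, 1090, 2643, 1896, 2028, 2028, 1439, 960 and 1048 over the 10 libraries. Each of the first 4 days stood above the one before, and every later day stayed above day 1. The value at day 3 was 8.99 times that at day 0, a log2 difference of 3.16, and 1.79% of genes moved as far. ITGAV (ENSG00000138448) lies on the same chromosome as ITGA6, at chr2:187454792-187545628.

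ITGA5, the α5 chain of the classic fibronectin receptor, was 154, 186, 620, 920, 1130, 472, 355, 408, 460 and 524. Its values were thus high from day 2 to day 5 and lower afterwards, but never back at the level of days 0 and 1. The day 3 value was 5.97 times the day 0 value (log2 difference 2.57). FN1, the fibronectin gene that encodes its main ligand, was 852, 2426 and 3428 on days 0, 2 and 3, and sat at the maximum of 18734 on every day from day 5. ITGB5, the β5 partner of αV, was not called at day 3, with 854 at day 0 and 1558 at day 3 (log2 difference 0.87, against a yardstick of 0.54).

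Of the other laminin receptors, ITGA3 was 108, 92, 60 and 50 on days 0 to 3, a log2 difference of -1.10, and ITGA7 was 155, 130, 82 and 146. ITGA3 therefore lay past the yardstick without being called, and ITGA7 lay within it. Among the 7 laminin chains with a value of at least 50, the log2 differences from day 0 to day 3 ranged from -0.69 (LAMC3) to 0.71 (LAMB2), and none was called. NID1, a nidogen, was 236 at day 0 and 78 at day 3, a log2 difference of -1.58. Markers of pluripotent cells summed to 12133 at day 0 and 7592 at day 3 over 6 genes, and 6 DE markers to 22 and 22203. Of the 6 pluripotency markers 4 were lower at day 3, LIN28A was 2971 on both days and TDGF1 was higher (1044 and 2428). All 6 DE markers were higher, and CER1 alone held 18734 of their sum at day 3. Bulk RNA cannot tell fewer cells that express a gene from less RNA per cell, here or in the comparisons that follow.

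**Figure D2:**
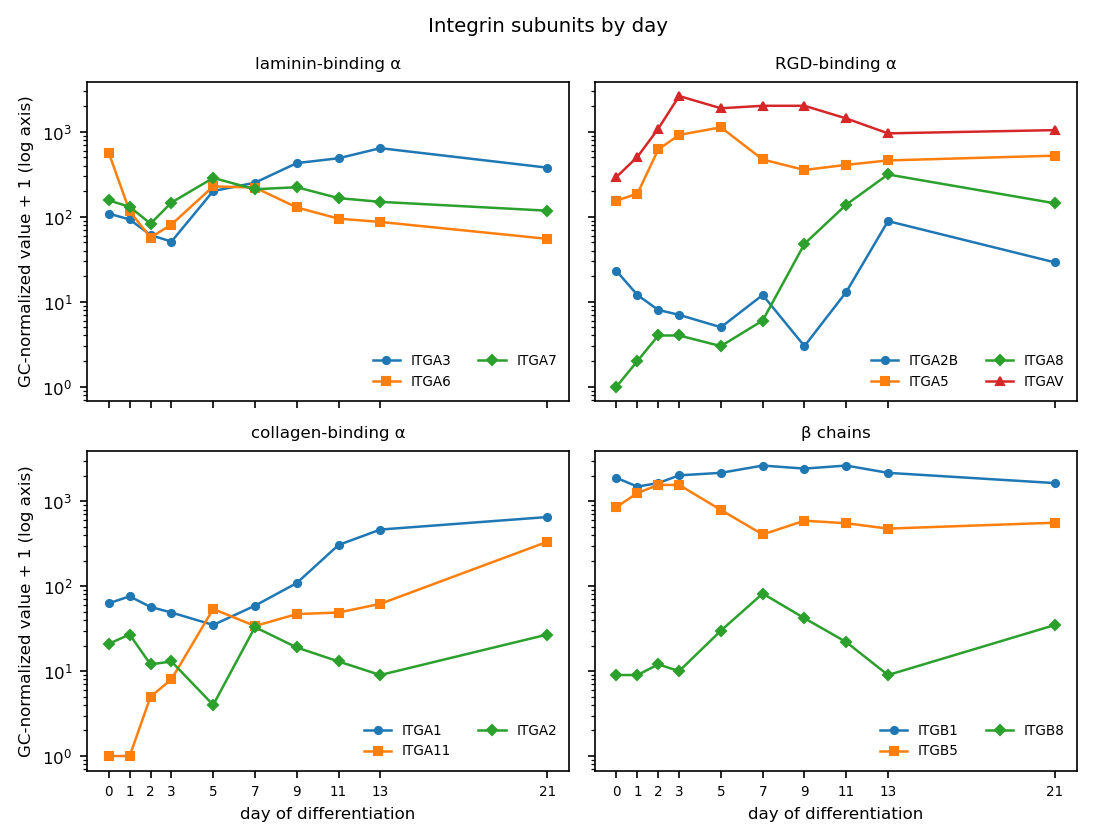
Value + 1 (log axis) of integrin subunits by day, 1 point per library, in 4 panels by role. ITGA6 drops from 567 to 56 by day 2 while ITGAV climbs from 294 to 2643 by day 3, ITGA1 and ITGA8 climb after day 7, and ITGB1 stays between 1490 and 2636.

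The second comparison, day 7 against day 3, spans the BMP2 and FGF4 step, in which DE cells are directed to a hepatic fate. Calls now fell on laminin and linker genes as well as on integrins. LAMA1 and LAMB1, the α1 and β1 chains of the laminin of early embryonic basement membranes, and NID2 were upregulated, together with the integrin chains ITGA3 and ITGB8, and LAMC3 was downregulated. That made 5 of the 21 members tested higher (23.8%) and 1 lower (4.76%), against 5.63% and 4.41% of the 9100 genes tested. The median log2 difference was 0.52 over the 21, and -0.04 over all genes tested. NID2 and ITGB8 reached the minimum only through day 7, so they could only be counted as higher, and LAMC3 only through day 3, so it could only be counted as lower. Of the 15 members with at least 50 on both days, 3 were higher (20.0%) and 0 lower, against 1.70% and 1.29% of all such genes.

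LAMB1 (ENSG00000091136) was 231, 474, 293, 342, 3430, 18734, 6496, 6496, 4858 and 6496 over the 10 days. It lay between 231 and 474 up to day 3, climbed at day 5, was 1 of the 10 genes at the maximum of the table at day 7, and stayed at 4858 or more. The value of day 7 was 54.8 times that of day 3 (log2 difference 5.77), and 0.857% of genes moved as far. Since no value lies between 6502 and 18734, the step from 18734 at day 7 to 6496 at day 9 is 1 level of the scale. The interval the table gives, chr7:107564244-107570422 on the minus strand, covers under 25% of the gene span in RefSeq, and which part of the gene its value stems from was not tested.

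LAMA1 (ENSG00000101680, chr18:6941743-7117813, minus strand) was 378, 414, 325, 320, 3429, 3429, 2164, 1435, 650 and 852. It lay between 320 and 414 up to day 3, was highest on days 5 and 7 and was lower at each library after that to day 13. At day 7 it was 10.7 times its day 3 value (log2 difference 3.42). LAMC1 (ENSG00000135862, chr1:182992597-183114727, plus strand), the γ1 chain of most laminins, was 695, 567, 488, 488, 1554, 1887, 2796, 2796, 2426 and 2968. Its log2 difference from day 3 to day 7 was 1.95, just short of the 4-fold line and past the yardstick of 0.54, and every later library stood above its day 7 value.

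The 250 bases before the annotated start of LAMB1 and of LAMC1 are shown because these chains of 1 trimer moved in the same step. They were taken from RefSeq on GRCh38.p14, a different build from that of the intervals above, at chr7:108003162-108003411 on the minus strand for LAMB1 and chr1:183023170-183023419 on the plus strand for LAMC1. Capitals mark GGGCGG, the core of the GC box, on either strand (CCGCCC on the strand shown), overlaps included.
LAMB1: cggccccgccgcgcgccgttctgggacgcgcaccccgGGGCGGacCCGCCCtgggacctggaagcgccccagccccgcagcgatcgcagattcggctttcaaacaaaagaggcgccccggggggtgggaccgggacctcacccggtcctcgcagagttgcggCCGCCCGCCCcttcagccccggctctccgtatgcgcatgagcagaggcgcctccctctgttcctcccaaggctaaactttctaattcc
LAMC1: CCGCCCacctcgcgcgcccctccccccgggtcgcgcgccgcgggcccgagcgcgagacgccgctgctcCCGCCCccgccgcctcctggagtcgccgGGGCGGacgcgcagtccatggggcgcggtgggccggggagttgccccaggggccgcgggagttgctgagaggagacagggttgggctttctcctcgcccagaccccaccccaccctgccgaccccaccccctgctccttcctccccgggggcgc
The LAMB1 window held 4 matches in 70.4% GC and the LAMC1 window 3 matches in 79.6% GC. Of the 22 members with a window, 14 held the motif (63.6%), against 68.5% of the 8713 genes of the table with a window, so the members did not carry it more often. TATAAA, the TATA box core, was found in the window of 1 member, ITGA6 (4.55%), and in 5.34% of genes. The letters AGATAA, the core bound by GATA factors, were in 0 of 22 windows and in 4.53% of genes. TGTTTAC, a core bound by FOX factors, was also in 0 of 22 windows, and in 1.96% of genes. A match is a string of letters and not a bound site.

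The linkers were above their day 3 value as well. NID2 (ENSG00000087303), a nidogen, was 35, 12, 11, 4, 46, 733, 1326, 1326, 1490 and 744, with its lowest value at day 3 and high values from day 7. Its log2 difference of 7.20 from day 3 to day 7 was the largest among the members, and 0.297% of genes moved as far. HSPG2, perlecan, was 804, 704, 504, 1065, 2426, 2796, 1886, 2020, 1733 and 1554, highest at day 7 with a log2 difference of 1.39 that was not called, and its table interval covers 7.36% of the RefSeq span. AGRN lay between 582 and 838 up to day 3 and between 1044 and 1734 from day 5 (log2 difference 1.05, day 7 against day 3).

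Other basement membrane genes, from a list of 23 of which 18 were in the table, also had calls in this step, with 6 of the 15 tested upregulated (40.0%) and 3 downregulated (20.0%), against 5.63% and 4.41% of all genes. The 3 downregulated genes, NTN1, NTN4 and FREM1, reached the minimum only through day 3 and could only be counted as lower. Type IV collagen, the second network of the basement membrane, was represented by COL4A1, with 325, 226, 541, 1000, 6499, 6499, 4861, 3434, 2026 and 4862, and by COL4A2, with 390, 252, 357, 703, 6496, 2969, 3430, 3429, 3431 and 2969. Both stood above their day 0 value by day 3 and jumped at day 5, as LAMB1 and LAMA1 did. Dystroglycan (DAG1), a laminin receptor outside the integrin family, was 589, 459, 530, 634, 2022, 4858, 3862, 2798, 1184 and 488, a hump that ended at its starting level. A list of other laminin receptors and their partner proteins held 9 genes. Of these, 3 were upregulated from day 3 to day 7 (33.3%), against 5.63% of all genes, and none was downregulated, against 4.41%.

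**Figure D3:**
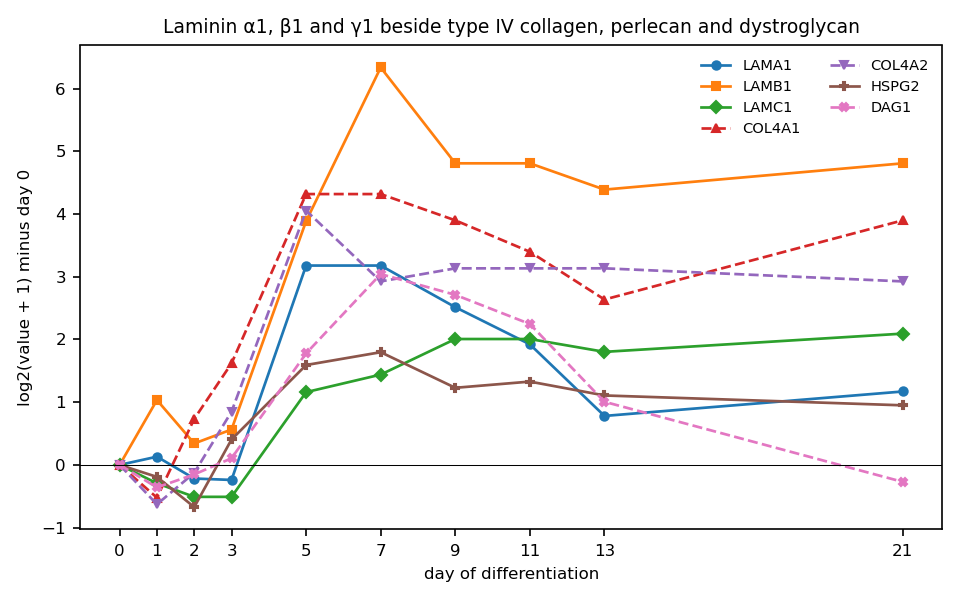
Difference of log2(value + 1) from day 0 for LAMA1, LAMB1, LAMC1 and HSPG2 (solid lines) and for COL4A1, COL4A2 and DAG1 (dashed lines) by day, 1 library per day. All 7 genes step up between days 3 and 5, and after day 7 LAMA1 and DAG1 come down while LAMB1, LAMC1 and COL4A2 stay high.

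Among the integrins, ITGA3 (laminin-binding) was 50, 200 and 251 on days 3, 5 and 7, a log2 difference of 2.30. It went on to 428, 488 and 642 on days 9, 11 and 13 and was 378 at day 21. Relative to day 0, the log2 ratio of ITGA6 to ITGA3 lay between -1.71 and -2.57 from day 1 to day 7 and was -4.12, -4.75, -5.27 and -5.17 on days 9 to 21, so that most of the change lay between days 0 and 1 and after day 7. ITGB8, an αV partner, was 8 to 11 up to day 3, then 29 and 81 on days 5 and 7, its highest value.

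ITGB5 was 1558 at day 3 and 406 at day 7, a log2 difference of -1.94 that missed the 4-fold line. LAMC3, the γ3 chain, was 104, 216, 90, 64, 24, 11, 24, 16, 20 and 237, so that it was low from day 5 to day 13 and high at both ends. LAMA2, the α2 chain known from muscle, had a similar shape at lower values, with 66, 57, 56, 44 and 35 up to day 5, listed at 0 on days 7 and 9, and 6, 16 and 171 afterwards. It had no value of 50 on days 3 or 7 and was not called between them.

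The third comparison, day 13 against day 7, covers the HGF and KGF step. The called genes were mostly integrin α chains and LAMB3. ITGA1, ITGA8, ITGA2B and LAMB3 were upregulated, and LAMA1 and ITGB8 were downregulated. Of 23 members tested, 4 were higher (17.4%) and 2 lower (8.70%), against 3.08% and 2.46% of the 8892 genes tested, and the median log2 difference was 0.36, against -0.05. ITGA8, ITGA2B and LAMB3 reached the minimum only through day 13 and ITGB8 only through day 7, so each could be counted in 1 direction only. Of the 17 members with at least 50 on both days, 1 was higher and 1 lower (5.88% each), against 0.749% and 0.791% of all such genes.

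ITGA1, the α1 chain of a collagen receptor, was 62, 75, 56, 48, 34, 58, 108, 305, 464 and 652 over the 10 days. It stayed under 80 to day 7 and was higher at every library after that, with a log2 difference of 2.98 from day 7 to day 13 and of 1.49 within the shared medium of days 9 and 11. ITGA8, the α8 chain known from mesenchyme, was listed at 0 on day 0, held 1 to 5 from day 1 to day 7, and was 47, 138, 314 and 143 on days 9, 11, 13 and 21. Its log2 difference from day 7 to day 13 was 5.71, and 0.270% of genes moved as far.

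LAMB3, the β3 chain of the laminin of epithelial anchoring structures, was listed at 0 on days 0, 3 and 5, had 2 and 1 on days 1 and 2, and was 15, 36, 78, 124 and 758 from day 7 to day 21. Each library after day 5 was thus above the one before. The log2 difference was 2.97 from day 7 to day 13 and 2.60 from day 13 to day 21. The 250 bases before its start in RefSeq (GRCh38.p14, chr1:209652426-209652675, minus strand, the first of 3 windows listed) are shown for contrast with those of LAMB1 and LAMC1. They had 1 match to the GC box core, in capitals, and 64.0% GC.
LAMB3: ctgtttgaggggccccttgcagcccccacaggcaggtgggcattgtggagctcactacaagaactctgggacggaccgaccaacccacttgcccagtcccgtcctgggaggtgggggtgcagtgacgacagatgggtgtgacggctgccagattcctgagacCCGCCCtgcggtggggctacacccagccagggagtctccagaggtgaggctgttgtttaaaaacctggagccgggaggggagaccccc

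ITGA2B, the αIIb chain known from platelets, was between 2 and 22 up to day 11, then 88 and 28 on days 13 and 21, so its call rests on the day 13 library alone. LAMA1 was 3429 at day 7 and 650 at day 13 (log2 difference -2.40), and ITGB8 was 81 and 8. With day 11 in place of day 13, whose label and step length disagree, ITGA1, ITGA8 and LAMB3 were still called higher and ITGA2B, LAMA1 and ITGB8 were not called. The α chains shifted against each other. LAMA5, the α5 chain of mature epithelial basement membranes, was 535, 380, 497, 604, 676, 790, 1044, 1130, 1385 and 1638, and relative to day 0 the log2 ratio of LAMA1 to LAMA5 was 2.62 at day 7 and -0.59 at day 13.

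Markers of other cells moved in the same interval. A list of 10 stromal markers, all in the table, summed to 5314, 19114 and 38239 on days 7, 9 and 13, against 1500 to 3059 up to day 5. DCN was 9 at day 7 and 2802 at day 13, and COL1A2 was 745 and 18734, the maximum. THY1 held 2164 of the sum at day 0 and was 20 on days 5 and 13. Of the 9 tested between days 7 and 13, 4 were called higher (44.4%) and 0 lower, against 3.08% and 2.46% of all genes. Among the 4, DCN and PDGFRB reached the minimum only through day 13. Of 9 endothelial markers, 7 were in the table and summed to 477 at day 7 and 2170 at day 13. CDH5, which defines endothelium, was 34 and 152. The 8 hepatic markers summed to 158, 37906 and 54693 on days 3, 7 and 13. ITGA1, ITGA8 and ITGA11 are also genes of stromal cells, and the part of stromal or endothelial cells in these results was not tested.

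The fourth comparison, day 21 against day 13, covers the OSM step to hepatocyte-like cells. Laminin genes that had been low were upregulated. LAMA2, LAMB3 and LAMC3 were called higher, and so was 1 integrin gene, ITGA11, which encodes a collagen-binding chain of fibroblasts. That is 4 of 24 members tested (16.7%), against 2.28% of the 8786 genes tested, and no member was called lower, against 1.62%. All 8 laminin chains had a log2 difference above 0, with a median of 0.89, while the 12 integrins tested had a median of -0.31 and all genes tested one of -0.05. LAMA2 and LAMC3 reached the minimum only through day 21 and could only be counted as higher. Of the 20 members with at least 50 on both days, 2 were higher (10%) and 0 lower, against 0.836% and 0.390% of all such genes.

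LAMC3 went from 20 on day 13 to 237 on day 21 (log2 difference 3.50) and LAMA2 from 16 to 171 (3.34). For LAMC3 0.603% of genes moved as far, and for LAMA2 0.660%.

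ITGA1 and ITGA2, with 32.8 kb between them on chromosome 5, were the closest pair on the table's intervals and did not move together, since ITGA2 stayed between 3 and 32 throughout while ITGA1 reached 652.

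LAMB2, the β2 chain, was 289, 232, 317, 474, 576, 378, 597, 768, 788 and 2020, with a log2 difference of 1.36 from day 13 to day 21 that was past the yardstick and not called. Its table interval, like that of LAMA5, covers under 25% of the RefSeq gene span. NID1 was 236, 185, 140, 78, 106, 247, 370, 524, 704 and 1642, lowest at day 3 and higher at every library after it. NID2 was 1490 at day 13 and 744 at day 21, so the nidogens stood on opposite sides of 0 in the last step, neither of them called. The log2 ratio of NID1 to NID2 relative to day 0 was -4.56 at day 9 and -1.58 at day 21.

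ITGA11 was listed at 0 on days 0 and 1, was 4, 7, 53, 33, 46, 48 and 61 from day 2 to day 13, and 333 at day 21 (log2 difference 2.43 from day 13). Stromal markers summed to 38239 at day 13 and 39957 at day 21, with COL1A2 at the maximum of 18734 on both days, where it could not rise. Of the 9 tested 3 stood above and 3 below their day 13 value (PDGFRB 290 and 518, TAGLN 628 and 206). COL1A2, COL3A1 and DCN had equal values on both days. None of the 9 was called, near the 2.28% and 1.62% of all genes called higher and lower. Of 13 leukocyte markers 5 were in the table, and they summed to 125 at day 13 and 665 at day 21, against 162 at day 0. PTPRC, which defines leukocytes, was 39, 12 and 18 on days 0 to 2, listed at 0 from day 3 to day 13 and at 65 on day 21. Of the 8 hepatic markers 2 were upregulated, ALB (168 and 4866) and SERPINA1 (2640 and 18734), and 3 stood below their day 13 value without a call. The part of these cells in the laminin and ITGA11 values was not tested.

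**Figure D4:**
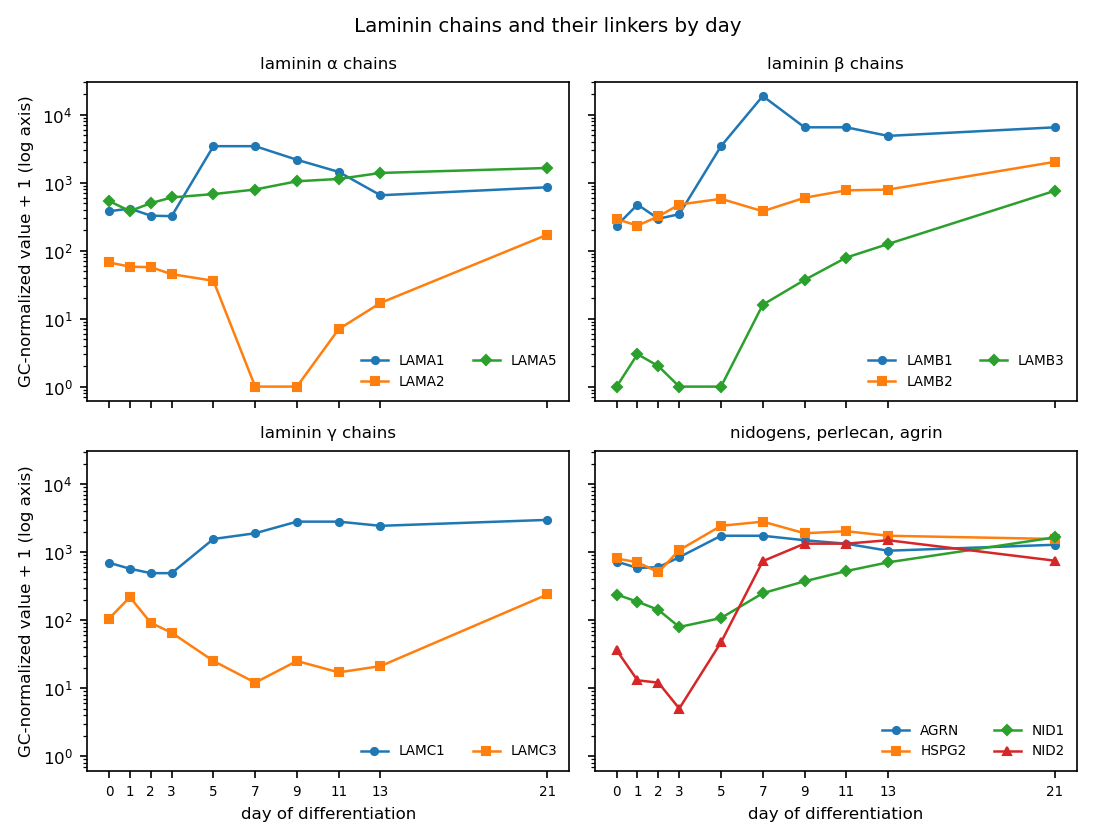
Value + 1 (log axis) of laminin chains and linkers by day, 1 point per library, in 4 panels. LAMB1 reaches 18734 at day 7, LAMB3 climbs from 15 at day 7 to 758 at day 21, and LAMA2 and LAMC3 turn up at day 21.

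Over the whole course, day 21 against day 0, 9 of the 22 members tested were upregulated (40.9%) and 1 was downregulated (4.55%), against 11.9% and 11.5% of the 9698 genes tested. The median log2 difference was 1.78, against -0.11. Of the 9, 6 were laminin or linker genes (LAMB1, LAMB2, LAMB3, LAMC1, NID1 and NID2), and 3 were integrin genes (ITGA1, ITGA8 and ITGA11). ITGA6 was the downregulated member, with 567 and 54 (log2 difference -3.37). LAMB3, NID2, ITGA8 and ITGA11 reached the minimum only at day 21. Of the 18 members with at least 50 on both days 5 were higher (27.8%), against 3.81% of all such genes.

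All 12 laminin and linker genes were above their day 0 value at day 21, with a median log2 difference of 1.85, and none was downregulated. LAMB1 had the largest difference among those with a value on both days, 4.81, which is 28.1 times its day 0 value. NID2 followed with 4.37, ITGA1 with 3.37, LAMB2 with 2.80, NID1 with 2.79 and LAMC1 with 2.09. LAMA5 (1.61), LAMA2 (1.36), LAMC3 (1.18), LAMA1 (1.17), HSPG2 (0.95) and AGRN (0.82) were past the yardstick and not called. LAMB3, ITGA8 and ITGA11 were listed at 0 on day 0, with 758, 143 and 333 at day 21, and no fold is given for them. Scaling the libraries by the median of ratios raised the log2 differences of this comparison by up to 0.19, so that 10 members were higher, ITGAV now among them, and changed the count of calls in no other comparison.

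**Figure D5:**
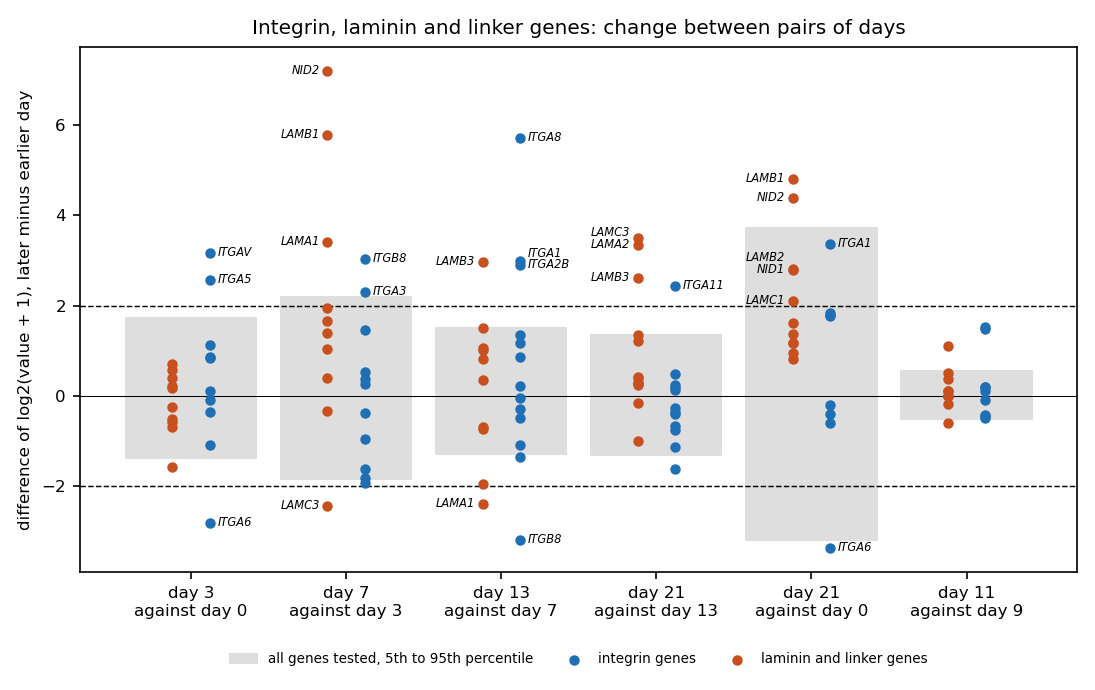
Difference of log2(value + 1) between pairs of days for the members with a larger value of at least 50 and no value of 0, as 1 point per gene, with integrins in blue and laminins and linkers in orange. Grey boxes span the 5th to 95th percentile of all genes tested and dashed lines mark 4-fold, and the called genes are named. NID2 and LAMB1 stand highest from day 3 to day 7, and days 9 and 11, which share a medium, have no called member.

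ITGB1 encodes the β1 chain, the common partner of most α chains above. It was 1887, 1490, 1640, 2021, 2164, 2636, 2428, 2636, 2164 and 1638, and its log2 difference was within the yardstick in all 5 comparisons, between -0.40 and 0.38. In these comparisons the called α chains thus changed beside a β1 value that stayed within its yardstick. Its highest and lowest of the 10 values, 2636 and 1490, were 0.82 apart in log2. That is past the yardstick of 0.59 for values of 1000 to 2164. ITGB5 lay between 406 and 1559, and relative to day 0 the log2 ratio of ITGB1 to ITGB5 was -1.07 at day 2 and 1.55 at day 7.

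Below 100 on all days were 6 integrin genes, namely ITGA2B, ITGA2, ITGA4, ITGA9, ITGAE and ITGB8. ITGA9, a receptor for tenascin and related ligands, was 36, 48, 88, 80, 76, 22, 38, 39, 51 and 42, higher on days 2 to 5 than on other days. ITGAE, a chain of intraepithelial lymphocytes, was between 15 and 49, over an interval that covers 10.6% of the RefSeq span. ITGA4, the α4 chain, was 39 at day 0, listed at 0 on day 1, 84 and 70 on days 2 and 3, and between 8 and 37 later, and its interval covers under 25% of the RefSeq span. ITGA7 lay between 82 and 286, highest at day 5.

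The ligands and adaptors of these receptors were read from lists chosen by role. Of 22 integrin ligand genes, 20 were in the table and 19 were tested between day 0 and day 21, with 13 upregulated (68.4%) and none downregulated, against 11.9% and 11.5% of all genes tested. Among the 13, NPNT, FBN1, VCAM1, FGB, FGA, EMILIN1, FGG and POSTN reached the minimum only through day 21. They could only be counted as higher. TNC, tenascin C, was 98 on day 0, 2798 on days 3 and 5 and 96 on day 21 (log2 difference -0.03 over the course). On days 3 and 5 ITGA9, ITGA5 and ITGAV were also high, but ITGAV was still 2028 on day 7, when TNC was 112. NPNT, nephronectin, the ligand of α8β1, was 6, 44, 790 and 1640 on days 0, 7, 13 and 21. ITGA8 was 0, 5, 314 and 143 on the same days, so NPNT was higher and ITGA8 lower at day 21 than at day 13. The largest rises on the list were those of NPNT and of the fibrinogen chains FGA, with 1 on day 0 and 2796 on day 21, and FGG, listed at 0 and then at 1327. The lowest log2 differences, none of them called, were those of MFGE8 (2968 and 1108), EDIL3 (514 and 353) and TNC. SPP1, osteopontin, was 26 on day 13 and 1896 on day 21.

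Of 32 adaptor genes that join integrins to actin, 30 were in the table and 29 were tested between day 0 and day 21, with 7 upregulated (24.1%) and 1 downregulated (3.45%), against 11.9% and 11.5% of all genes tested. Among the 7, PARVA, PTK2B, LIMS2, TNS1 and TGFB1I1 reached the minimum only through day 21 and could only be counted as higher. The downregulated gene reached it only through day 0 and could only be counted as lower. The downregulated gene was FERMT1, an epithelial kindlin, with 55 on day 0 and 5 on day 21, and RSU1 (144 and 42) and ZYX (456 and 194) were lower without a call. LIMS2, a partner of integrin-linked kinase, was 3 and 155, and the tensins TNS1 and TNS3 were 18 and 269, and 98 and 823. From day 0 to day 3 none of the 24 adaptors tested was called, near the 3.94% and 2.16% of all genes called higher and lower. Among the 9 genes for other laminin receptors and their partner proteins, 1 was upregulated at day 21 (11.1%, near the 11.9% of all genes). None was downregulated, against 11.5%. The upregulated gene was DMD, a partner protein and not itself a receptor. DMD was 63, 1329 and 331 on days 0, 13 and 21. BCAM, a receptor for laminin α5, was 280 and 889 on days 0 and 21 (log2 difference 1.66) and SGCE 66 and 149 (1.16). RPSA, a ribosomal protein also known as a laminin receptor, was 3434 and 1387 (-1.31).

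By day 21, 10 of the 17 other basement membrane genes tested were upregulated (58.8%) and none was downregulated, against 11.9% and 11.5% of all genes tested, with a median log2 difference of 2.93 against -0.11. Among the 10, NPNT, SMOC2, NTN4, FREM1 and COL15A1 reached the minimum only through day 21 and could only be counted as higher. The largest rises were those of NPNT, of FREM1 (5 and 527) and of COL15A1 (2 and 162). HMCN1 (174 and 69), FBLN2 (149 and 98) and FREM2 (311 and 281) stood below their day 0 values without a call.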

How the data were processed

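Bulk RNA of H1 hESCs was sequenced on 10 days of hepatic differentiation, 1 library per day (TruSeq libraries, MiSeq). The authors aligned reads with Bowtie2 2.2.0, estimated gene values with RSEM 1.2.17 on an Ensembl release 76 transcriptome, and corrected them for GC content with EDASeq. The submitters' processing notes name the builds hg19 and mm10, and the methods name the transcriptome mm10, although the gene names are human. The deposited values are whole-number scores, not read counts, so no count model was fitted and depth is unknown. The table names no build for its intervals, and only 6 of 28 member intervals overlap the GRCh38.p14 span of the gene.

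Columns were matched to days by name. Differences are of log2(value + 1), computed with Python 3.11.15, numpy 2.4.6 and pandas 2.3.3, and plotted with matplotlib 3.10.9. A gene counts as tested, with no statistical test, where the larger value was at least 50, and as called at a 4-fold difference. With 1 library per day there is no replicate check. The code was tested on simulated data for day 3 against day 0, where all 200 of 12125 genes changed 8-fold were called and 0 others were. The changed genes all had a mean of at least 100, and the noise was the same at all levels. The simulation thus checks the code and gives no rate of false calls in the real data. Members with a value of at least 100 and a 4-fold difference in any comparison, and the highest member of each role, are described by day (20 genes), and the other 8 mostly by range. From the lists of ligands, adaptors, other laminin receptors and other basement membrane genes the largest rises and falls were named. For the cell type marker lists this rule was not followed. The marker genes named, and other genes of all lists, were chosen after their values were seen. The members, lists and settings were chosen with earlier results of these data known. Alternatives were other pseudocounts (0.1 and 5), minimums, a fold of 2, median-of-ratios scaling, day 11 for day 13 and, added after seeing the data, leaving out members that reach 2164. Promoter windows came from RefSeq and were found for 22 of 28 members. The values of 1 gene that the name rule matches are not reported here. Of 7 listed platelet and megakaryocyte markers 0 were in the table, so platelets could not be looked at. Other integrin and laminin genes were not analysed here.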

Additional observations from a re-analysis of the deposited data

How the results depend on the processing

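Depth is unknown and each day has 1 library, so no value has an error. No paired analysis was possible because each day has 1 library and no result comes from a test. No called difference changed sign under any alternative that was run, but the pseudocounts, minimums, fold and scaling used could not turn a 4-fold difference. Only day 11 in place of day 13 brought in another library, and with it ITGA2B, LAMA1 and ITGB8 were no longer called against day 7. Among the differences not called, that of ITGA5 from day 7 to day 13 went from -0.04 to 0.02 with median-of-ratios scaling. Pseudocounts of 0.1 and 5 and median-of-ratios scaling kept every count of called members within 1.5 times. The exceptions under the other settings follow, and their cause was not tested.

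With no filter on low values, day 3 against day 0 had 4 members higher and 2 lower, and day 7 against day 3 had 2 lower. With a minimum of 200, day 7 against day 3 had 0 lower and a median of 1.22, and day 13 against day 7 had 2 higher and 1 lower. At 2-fold, 3 members were lower between days 0 and 3, 10 were higher and 4 lower between days 3 and 7, 9 higher and 5 lower between days 7 and 13, 3 lower between days 13 and 21, and 16 higher between days 0 and 21. With day 11 for day 13, 0 members were lower than at day 7. Without the 6 members that reach 2164, day 3 against day 0 had 1 higher, day 7 against day 3 had 3 higher, and day 13 against day 7 had 1 lower and a median of 1.02. For genes listed at 0 on 1 day the log2 difference moved with the pseudocount, and for LAMA2, LAMB3, ITGA8 and ITGA11 none is given against a day at 0.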
